A study of Mus musculus with 12 samples.

Results

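The genes described here, 9 of the myostatin and activin pathway and Mss51, were followed in the tibialis anterior (TA) muscle of wild-type mice before birth and at 2 ages after it. The set was chosen by name and holds 3 ligands (Mstn, Gdf11, Inhba), 2 type II receptors (Acvr2a, Acvr2b), 3 genes of the follistatin family (Fst, Fstl1, Fstl3), the inhibitory Smad gene Smad7 and the mitochondrial protein gene Mss51. Mss51 entered because of its own rise between 2 and 7 weeks in these libraries, so its values are given as a description with no test. The 10 members were matched by symbol among the 55450 genes of the count table, and all 10 were among the 19276 genes that had enough reads to be tested.

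The data are polyA-selected RNA-seq read counts of TA muscle from WT mice of the 129Pas background at E18.5, a late fetal stage, and at 2 and 7 weeks of age, with 4 mice per age and so 12 libraries. The labels give all mice as WT, name no treatment and do not give the sex of the animals. Library totals ran from 63018968 to 123449246 reads, and the smallest count of any member in any library was 44, of Inhba. Levels are TMM-normalized CPM, read counts divided by the size of the library after a scaling that sets the bulk of genes equal between libraries. Fold changes, their standard errors (SE) and p-values come from one edgeR quasi-likelihood fit of the 12 libraries. P-values are Benjamini-Hochberg adjusted over the 19276 genes, with a threshold of 0.05. A muscle is a mixture of cells, and in these bulk samples fewer cells of a type cannot be told apart from less RNA per cell.

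Myostatin, the product of Mstn, is a secreted member of the TGF-beta family that limits the growth of skeletal muscle, and animals without it carry enlarged muscles. It is made as a precursor, is cleaved and held latent by its propeptide, and when free binds an activin type II receptor, which recruits a type I receptor and leads to phosphorylation of Smad2 and Smad3. Follistatin and related proteins trap the ligands outside the cell, and Smad7 blocks the receptors from inside it. MSS51 is a mitochondrial protein of skeletal muscle whose yeast relative aids the synthesis of cytochrome c oxidase subunit 1, and Mss51 is known as a gene that responds to myostatin signalling.

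The libraries were checked against marker genes of muscle and of its neighbours. The summed level of 7 fast fibre markers was 6505 to 10026 CPM at E18.5, 113503 to 130269 CPM at 2 weeks and 129141 to 141851 CPM at 7 weeks, and no marker of the fibre lists was at 0 at any age. The E18.5 libraries differed among themselves in the markers of adipocytes and epidermis. The summed level of 5 adipocyte markers ran from 10.8 to 383 CPM at E18.5, against 3.04 to 8.88 CPM at 2 weeks and 3.08 to 6.82 CPM at 7 weeks. That of 5 epidermis markers ran from 1.71 to 49.0 CPM at E18.5, against 2.68 to 3.99 CPM and 1.67 to 7.72 CPM. Libraries of the later ages differed in other markers. At 2 weeks the sum of 5 tendon markers ran from 54.1 to 368 CPM and that of 5 Schwann cell markers from 133 to 628 CPM. The sum of 5 macrophage markers ran from 18.4 to 64.5 CPM at 7 weeks.

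Mss51 was near 10 CPM before birth and at 2 weeks and above 200 CPM in every library at 7 weeks. At E18.5 the 4 libraries held 10.04, 8.45, 10.4 and 6.12 CPM. At 2 weeks they held 9.58, 9.25, 12.6 and 8.64 CPM. At 7 weeks they held 595, 232, 567 and 400 CPM. The first 2 ages overlapped and every library at 7 weeks stood above every other library, with a spread among the 7-week mice of 168 CPM (SD, n = 4) around a mean of 449 CPM. The fitted log2 fold change was 5.49 (SE 0.32) between 2 and 7 weeks, or 44.8-fold, and 0.20 (SE 0.26) between E18.5 and 2 weeks, for which scaling by total counts gave -0.74. Leaving out each library in turn gave 5.32 to 5.70 for the later interval.

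**Figure D1:**
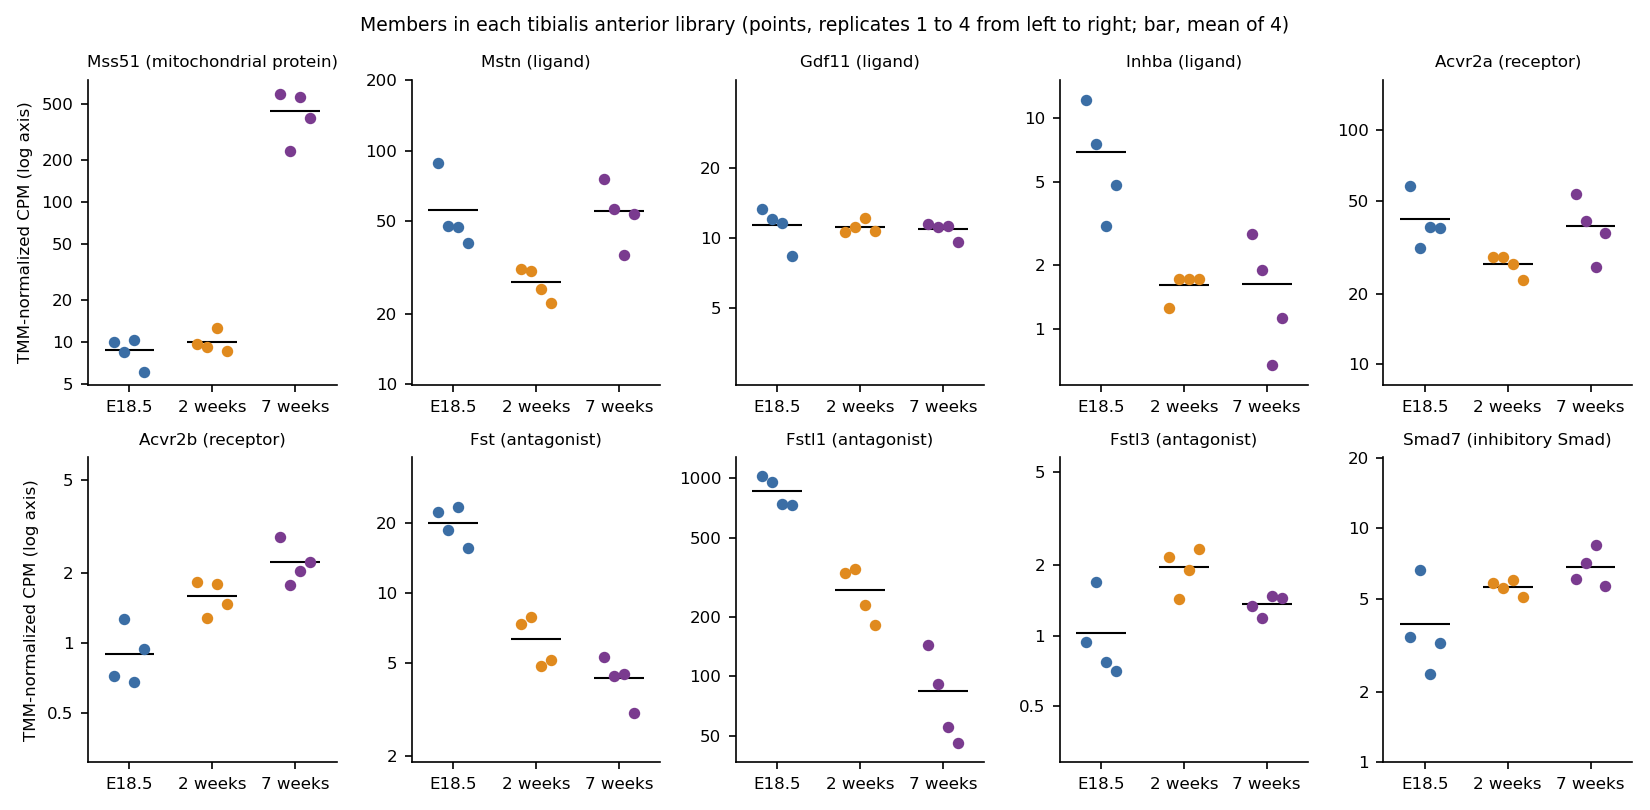
Level of each of the 10 members in TMM-normalized CPM (log axis, every panel with its own range) at E18.5, 2 weeks and 7 weeks. Points are single libraries, with replicates 1 to 4 from left to right, and bars are means of 4. The 4 libraries of Mss51 at 7 weeks lie between 232 and 595 CPM, while Mstn has its lowest mean, 27.4 CPM, at 2 weeks.

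The promoters of Mss51 and Mstn are shown because these are the members with a higher TMM-normalized level at 7 than at 2 weeks in every library. RefSeq windows on GRCm38.p6 that run from 250 bases before to 50 after the start site were matched for 8 of the 10 members, and the 250 bases before the start are printed 5′ to 3′ on the gene's strand. On this build the Mss51 gene spans chr14:20482857-20496901 and the Mstn gene chr1:53061640-53068079. The printed stretch of Mss51 is at chr14:20496902-20497151 on the minus strand and that of Mstn at chr1:53061390-53061639 on the plus strand. In the Mss51 sequence, capitals mark GTCTAGAC, the palindromic letters that Smad proteins bind. In the Mstn sequence, capitals mark the E-box letters CANNTG, which myogenic factors of the MyoD family bind, and the TATA box letters TATAAA. The motifs were picked after the windows had been read, and both strands were searched.
Mss51: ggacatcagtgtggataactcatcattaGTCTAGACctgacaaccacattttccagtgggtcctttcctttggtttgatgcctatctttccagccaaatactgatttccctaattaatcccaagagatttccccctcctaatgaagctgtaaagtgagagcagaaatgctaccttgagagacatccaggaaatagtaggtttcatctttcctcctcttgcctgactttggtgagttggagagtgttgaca
Mstn: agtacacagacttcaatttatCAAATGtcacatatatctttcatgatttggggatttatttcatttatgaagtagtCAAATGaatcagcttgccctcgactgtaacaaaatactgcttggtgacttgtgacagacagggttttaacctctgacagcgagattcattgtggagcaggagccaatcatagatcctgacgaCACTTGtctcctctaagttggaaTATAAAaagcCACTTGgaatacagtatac
GTCTAGAC began 222 bases before the start site of Mss51, was in no other member's window and was in 0.211% of the 27025 promoter windows of the same length. Mstn had 4 E-boxes, which 72.1% of all windows hold at least once, and a TATAAA that began 29 bases before the start site, a motif in 14.2% of windows. Mss51 had neither of the latter, and the shorter Smad letters CAGAC, held by 49.7% of windows, occurred 2 times in Mstn. These matches describe letters and say nothing of binding in these muscles.

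Amd1, which encodes an enzyme of polyamine synthesis, was the gene whose pattern was most like that of Mss51. The Pearson correlation of log2 CPM over the 12 libraries, given as a description since the libraries share their ages and depth, was 0.988 for Amd1, 0.986 for Ap1ar, 0.986 for Drosha, 0.979 for Zfp27 and 0.974 for Nsmaf, out of 8948 genes whose log2 CPM averaged 3 or more. The size of the step differed. Amd1 went from 50.7 to 678 CPM between 2 and 7 weeks, while Drosha, which encodes the nuclear enzyme that cuts primary miRNAs, went from 44.8 to 73.2 CPM.

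Between E18.5 and 2 weeks, 7 of the 9 pathway members passed the threshold. Acvr2b and Fstl3 rose, against a background of 31.5% of all tested genes called higher, and Mstn, Inhba, Acvr2a, Fst and Fstl1 fell, against 34.2% called lower. The 2 ages did not overlap for 6 of the 9, beside 61.3% of all genes. Between 2 and 7 weeks 2 of the 9 passed, with Mstn higher (13.5% of all genes were called higher) and Fstl1 lower (13.9% called lower), and these were also the 2 that did not overlap, beside 33.7% of all genes. From E18.5 to 7 weeks 5 of the 9 passed, Acvr2b and Smad7 higher (34.3% called higher) and Inhba, Fst and Fstl1 lower (37.1% called lower), and 4 of the 9 did not overlap, beside 63.4%. The change after 2 weeks differed from the change before it for 5 of the 9, beside 38.4% of all genes, in a test of that difference itself. The median log2 fold change of the 9 was -0.63, 0.01 and -0.06 in the 3 comparisons, beside -0.09, -0.03 and -0.09 over all tested genes. The 3 comparisons share their libraries and are no independent support for each other.

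**Figure D2:**
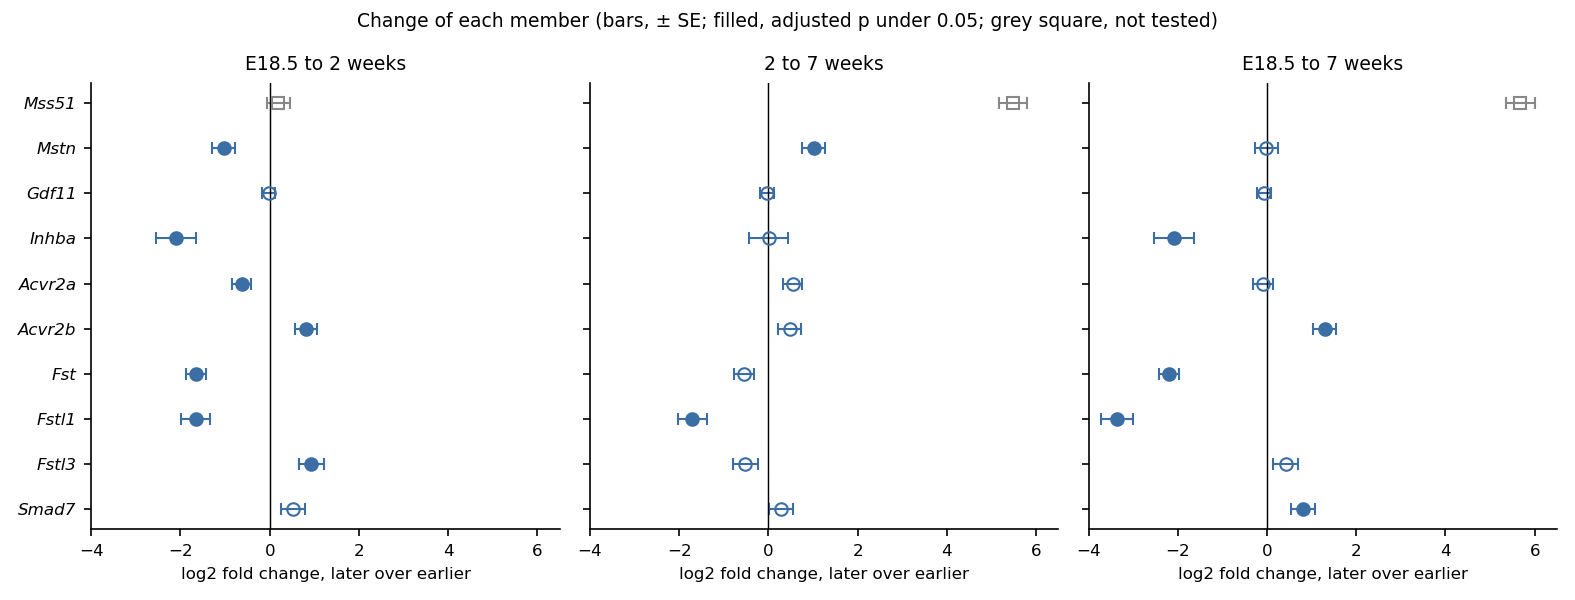
Log2 fold change of each member in the 3 comparisons of ages (x axis, later over earlier age), with bars for ± SE of the edgeR fit. Filled points passed the adjusted threshold of 0.05, open points did not, and the grey square is Mss51, which was not tested. Mstn moves from -1.03 to 1.01 between the first and second interval, and Fstl1 is to the left of 0 in all 3.

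Mstn, the ligand that gives the pathway its name, was at its lowest at 2 weeks. The 4 libraries held 88.9, 47.7, 47.0 and 40.3 CPM at E18.5. They held 31.2, 30.5, 25.5 and 22.4 CPM at 2 weeks, and 75.8, 56.3, 35.8 and 53.6 CPM at 7 weeks. Every 2-week library was below every library of the other ages, which overlapped with each other. With total counts the 2 later ages overlapped, since 7 weeks replicate 3 held 23.9 CPM and 2 weeks replicates 1 and 2 held 29.5 and 28.2 CPM. Mstn fell 2.04-fold to 2 weeks (log2 fold change -1.03, SE 0.26, edgeR adjusted p = 0.00325) and rose 2.02-fold from 2 to 7 weeks (1.01, SE 0.26, edgeR adjusted p = 0.0113). The 2 intervals differed by 2.04 log2 units (SE 0.47, edgeR adjusted p = 0.00457), a call that held without any single library. E18.5 and 7 weeks differed by -0.02 log2 units (SE 0.26, edgeR adjusted p = 0.961), and by -1.28 with total counts (edgeR adjusted p = 0.000557). The fall to 2 weeks was -0.72 (edgeR adjusted p = 0.00968) without E18.5 replicate 1, the highest of its age, and -0.44 (edgeR adjusted p = 0.0279) once each library's trend with GC content had been removed. The Mstn transcript has a GC content of 38.1%, the lowest of the 10. Its rise to 7 weeks was 0.65 (edgeR adjusted p = 0.00778) with the GC trend removed and missed the threshold with total counts (0.66, edgeR adjusted p = 0.0757).

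The genes whose pattern was most like that of Mstn were Aebp2 (Pearson r 0.953 over the 12 libraries), Cblb (0.949), Zfp955b (0.946), Esf1 (0.944) and Pds5b (0.942). The next, named because it is a member, was Acvr2a, which encodes one of the receptors that bind myostatin, with 0.941. The GC contents of the Mstn and Acvr2a transcripts are 38.1% and 42.5%. With the GC trend removed, the log2 fold changes to 2 weeks and from 2 to 7 weeks were -0.44 and 0.65 for Mstn. Those of Acvr2a were -0.15 and 0.27, neither past the threshold. Correlations were not computed in that setting. These correlations too are a description over libraries that share their ages.

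Gdf11 and Inhba code for the other ligands. Gdf11 encodes the closest relative of myostatin, and under TMM scaling its log2 fold changes were within 0.1 of 0 in all 3 comparisons. It held 13.3, 12.1, 11.6 and 8.33 CPM at E18.5, 10.6, 11.1, 12.1 and 10.7 CPM at 2 weeks and 11.5, 11.1, 11.3 and 9.62 CPM at 7 weeks. The ages overlapped throughout, and these changes were -0.03 (SE 0.16), -0.03 (SE 0.16) and -0.06 (SE 0.16), with edgeR adjusted p from 0.739 to 0.894. With the GC trend removed, Gdf11 fell by 0.58 on the log2 scale both between E18.5 and 2 weeks (edgeR adjusted p = 0.0125) and between E18.5 and 7 weeks (edgeR adjusted p = 0.0104). With total counts these values were -0.96 (edgeR adjusted p = 0.000116) and -1.34 (edgeR adjusted p = 3.87e-06). Exons of Gdf11 and of its antisense neighbour Sarnp share 448 bases in GENCODE vM39, and the strand setting of the read counting is not stated.

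Inhba encodes the activin beta A subunit, pairs of which form activin A. It held 12.2, 7.53, 3.09 and 4.81 CPM at E18.5, 1.26, 1.72, 1.73 and 1.72 CPM at 2 weeks and 2.83, 1.89, 0.67 and 1.12 CPM at 7 weeks. All E18.5 libraries were above all later ones, and the later ages overlapped. Inhba fell 4.28-fold to 2 weeks (-2.10, SE 0.44, edgeR adjusted p = 0.000919), then differed by 0.01 (SE 0.44, edgeR adjusted p = 0.989) from 2 to 7 weeks. Inha, which encodes the inhibin alpha subunit that turns an activin subunit into an inhibin, went the other way. It held 3.33 to 9.31 CPM at E18.5, 23.8 to 65.1 CPM at 2 weeks and 11.99 to 22.1 CPM at 7 weeks, with no overlap between neighbouring ages. It rose to 2 weeks (3.01, SE 0.35, edgeR adjusted p = 7.80e-06) and fell from there to 7 weeks (-1.43, SE 0.33, edgeR adjusted p = 0.00678).

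Both receptor genes were measured at each age, and under TMM scaling they moved in opposite directions to 2 weeks. From 2 to 7 weeks the log2 fold changes were 0.54 for Acvr2a and 0.48 for Acvr2b, and neither passed the threshold. Acvr2a held 58.1, 31.5, 38.5 and 38.2 CPM at E18.5, 28.7, 28.8, 26.9 and 23.0 CPM at 2 weeks and 53.3, 41.1, 26.0 and 36.2 CPM at 7 weeks. The 2-week libraries were below all E18.5 libraries and overlapped with those at 7 weeks. The fall to 2 weeks was 1.55-fold (-0.63, SE 0.22, edgeR adjusted p = 0.0209). It missed the threshold without E18.5 replicate 1 (-0.43, edgeR adjusted p = 0.0773), without 2 weeks replicate 4 (-0.55, edgeR adjusted p = 0.0656) and with the GC trend removed (-0.15, edgeR adjusted p = 0.309). From 2 to 7 weeks the change was 0.54 (SE 0.22, edgeR adjusted p = 0.0802), which passed without E18.5 replicate 1 (0.54, edgeR adjusted p = 0.0412) or 7 weeks replicate 3 (0.70, edgeR adjusted p = 0.0243).

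Acvr2b encodes the second activin type II receptor, which binds myostatin with high affinity. Per kb of transcript it had the lowest mean of the 10 at each age. It held 0.72, 1.26, 0.68 and 0.94 CPM at E18.5, 1.83, 1.28, 1.78 and 1.46 CPM at 2 weeks and 2.83, 1.77, 2.02 and 2.23 CPM at 7 weeks. The E18.5 libraries were below all others and the 2 later ages overlapped. Acvr2b rose 1.76-fold to 2 weeks (0.82, SE 0.25, edgeR adjusted p = 0.0114) and 2.45-fold to 7 weeks (1.29, SE 0.25, edgeR adjusted p = 0.000416), while scaling by total counts gave -0.11 and 0.02. Per kb of transcript, the ratio of Acvr2b to Acvr2a within a library, which a factor common to all genes of the library leaves as it is, was 0.0134 ± 0.0068 (SD, n = 4) at E18.5, 0.0336 ± 0.0057 at 2 weeks and 0.0333 ± 0.0083 at 7 weeks. Antisense genes overlap the exons of both, Orc4 by 3081 bases for Acvr2a and 4930516B21Rik by 1471 bases for Acvr2b, and their reads could not be separated here.

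Fst encodes follistatin, which binds and neutralises activin and myostatin. Its libraries held 22.3, 18.52, 23.3 and 15.6 CPM at E18.5, 7.36, 7.90, 4.85 and 5.17 CPM at 2 weeks and 5.34, 4.43, 4.47 and 3.07 CPM at 7 weeks. E18.5 stood above both later ages without overlap, and the later ages overlapped. Fst fell 3.15-fold to 2 weeks (-1.66, SE 0.22, edgeR adjusted p = 2.09e-05) and 4.61-fold to 7 weeks (-2.20, SE 0.22, edgeR adjusted p = 1.11e-06). The value between 2 and 7 weeks was -0.55 (SE 0.22, edgeR adjusted p = 0.0752), which passed with total counts (-0.92, edgeR adjusted p = 0.0117), with the GC trend removed (-0.61, edgeR adjusted p = 0.0463) and with upper-quartile scaling (-0.66, edgeR adjusted p = 0.0425).

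Fstl1 encodes a secreted follistatin-like glycoprotein made by mesenchymal cells, and it is listed here by its family. It held 1025, 955, 741 and 738 CPM at E18.5, 331, 350, 229 and 182 CPM at 2 weeks and 143, 91.1, 55.5 and 45.7 CPM at 7 weeks. No age overlapped with another. The fall was 3.17-fold to 2 weeks (-1.66, SE 0.33, edgeR adjusted p = 0.000536) and 3.26-fold from 2 to 7 weeks (-1.70, SE 0.33, edgeR adjusted p = 0.00223), with a difference of -0.04 (SE 0.55, edgeR adjusted p = 0.963) between the intervals. The summed level of 8 fibroblast markers was 4841 to 9101 CPM at E18.5, 3475 to 5142 CPM at 2 weeks and 916 to 3020 CPM at 7 weeks. In this sum E18.5 and 2 weeks overlapped. Of these 8 markers, 4 fell and 1 rose to 2 weeks, beside 34.2% of all genes called lower and 31.5% higher. From 2 to 7 weeks 4 of the markers fell, beside 13.9% of all genes called lower. Their part in the change of Fstl1 was not tested.

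Fstl3 encodes a soluble follistatin-like protein that binds myostatin and activin. It held 0.94, 1.69, 0.77 and 0.71 CPM at E18.5, 2.16, 1.43, 1.90 and 2.35 CPM at 2 weeks and 1.34, 1.20, 1.49 and 1.45 CPM at 7 weeks. E18.5 replicate 2 lay within the range at 2 weeks and the other E18.5 libraries lay below it. Fstl3 rose 1.91-fold to 2 weeks (0.93, SE 0.28, edgeR adjusted p = 0.0104), but the value was -0.06 (edgeR adjusted p = 0.842) with the GC trend removed and -8.31e-05 with total counts. Its transcript has a GC content of 57.2%, and 1157 bases of its exons overlap the antisense gene Prss57.

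Smad7, the inhibitory Smad gene, held 3.42, 6.63, 2.37 and 3.23 CPM at E18.5, 5.82, 5.53, 6.02 and 5.07 CPM at 2 weeks and 6.06, 7.08, 8.47 and 5.67 CPM at 7 weeks. E18.5 replicate 2 lay above every 2-week library and inside the range at 7 weeks, and the other E18.5 libraries lay below both later ages. The change to 2 weeks was 0.52 (SE 0.27, edgeR adjusted p = 0.101) and passed without E18.5 replicate 2 (0.90, edgeR adjusted p = 0.00140). Smad7 rose 1.74-fold from E18.5 to 7 weeks (0.80, SE 0.27, edgeR adjusted p = 0.0156), with -0.47 under total counts and -0.04 (edgeR adjusted p = 0.890) with the GC trend removed. Its transcript has the highest GC content of the 10, 57.9%.

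The other calls of the test between intervals were close to the threshold. The difference of the later from the earlier change was 2.11 for Inhba (SE 0.78, edgeR adjusted p = 0.0472), 1.17 for Acvr2a (SE 0.39, edgeR adjusted p = 0.0288), 1.11 for Fst (SE 0.38, edgeR adjusted p = 0.0339) and -1.45 for Fstl3 (SE 0.48, edgeR adjusted p = 0.0295). Each of these 4 lost its call when 1 of several libraries was left out, and without 2 weeks replicate 1 the count of members called was 1, Mstn.

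Scaling moved these values in 2 ways. Dividing by total counts in place of TMM shifted the median over the 19276 genes by -0.93 to 2 weeks, by -0.35 from 2 to 7 weeks and by -1.28 from E18.5 to 7 weeks on the log2 scale. Measured from that median, all 30 values of the members were within 0.0311 of those under TMM. This follows from the method, since the 2 scalings differ only by 1 factor per library, and does not tell which is right. Removing the GC trend moved the values of the members by up to 0.94 relative to the median. To 2 weeks it moved the AT-rich Mstn, Inhba and Acvr2a upward and the GC-rich Fstl3, Smad7 and Gdf11 downward. Mss51, at a GC content of 46.3%, was at 5.30 between 2 and 7 weeks in that setting.

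**Figure D3:**
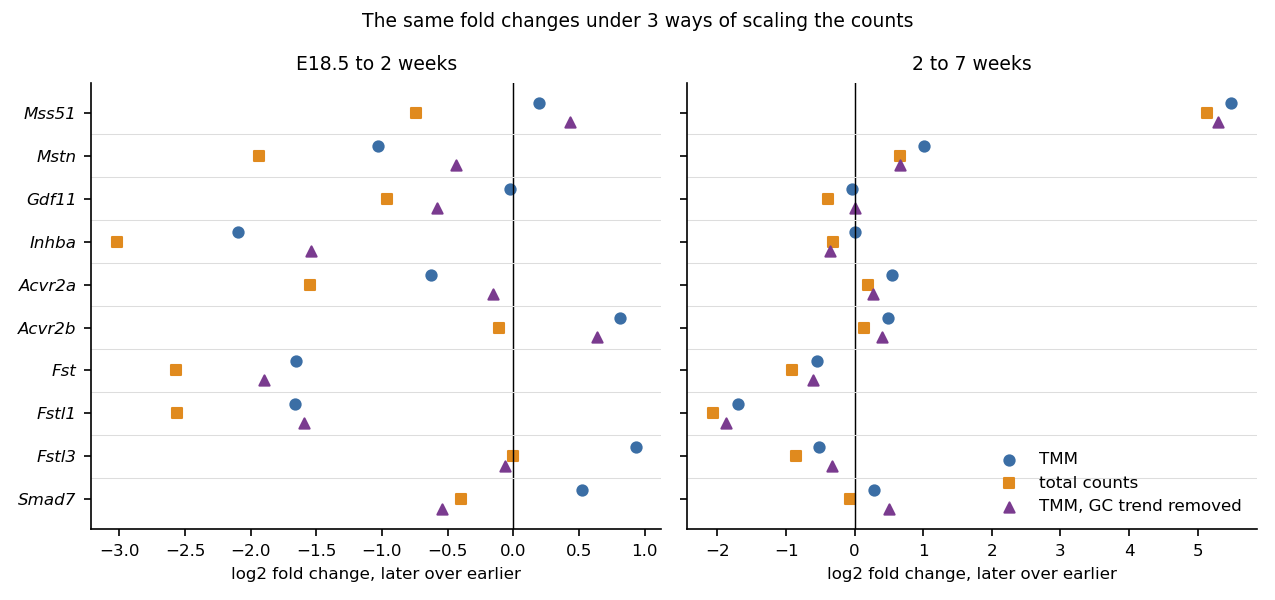
Log2 fold change of each member (x axis, later over earlier age) for E18.5 to 2 weeks and for 2 to 7 weeks under TMM scaling, total counts and TMM with each library's GC trend removed. From E18.5 to 2 weeks Fstl3 goes from 0.93 under TMM to -0.06 without the GC trend and Smad7 from 0.52 to -0.54, while Fst lies between -2.57 and -1.66 and Fstl1 between -2.56 and -1.60.

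Levels can be compared between genes per kb of transcript. On that scale the order of mean levels at E18.5 was Fstl1 (221 CPM per kb), Mstn (20.7), Fst (10.6), Acvr2a (6.85), Mss51 (4.77), Gdf11 (2.69), Inhba (1.15), Smad7 (0.87), Fstl3 (0.52) and Acvr2b (0.084). The ranges over 4 libraries overlapped between Fst and Acvr2a, between Acvr2a and Mss51, and between each neighbouring pair from Gdf11 to Fstl3. At 7 weeks Mss51 led with 245 CPM per kb, above Fstl1 (21.4) and Mstn (20.5), whose ranges overlapped. Acvr2a (6.45), Gdf11 (2.58), Fst (2.29), Smad7 (1.51), Fstl3 (0.70), Inhba (0.27) and Acvr2b (0.21) followed, and of these the neighbours Gdf11 and Fst, Fst and Smad7, and Inhba and Acvr2b overlapped.

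Ratios between members within a library are left as they are by a factor common to all its genes, such as TMM or total counts, but not by removal of the GC trend, which differs by gene. These ratios were picked after the values were seen and are given without a test. Mstn to Fst per kb was 2.78, 1.80, 1.41 and 1.81 at E18.5, 2.96, 2.70, 3.67 and 3.02 at 2 weeks and 9.91, 8.88, 5.59 and 12.2 at 7 weeks. Every 7-week library was above every younger one, and the means were 1.95 ± 0.59, 3.09 ± 0.41 and 9.14 ± 2.74 (SD, n = 4). Mstn to Acvr2a was 2.36 to 3.43 at E18.5, 2.13 to 2.44 at 2 weeks and 3.07 to 3.31 at 7 weeks. The 2 later ages did not overlap. Mstn to Gdf11 was 6.17 to 10.4 at E18.5, 3.25 to 4.62 at 2 weeks and 4.97 to 10.3 at 7 weeks. The dip of Mstn to Gdf11 at 2 weeks was not seen with the GC trend removed. There the log2 fold change to 2 weeks was -0.44 for Mstn and -0.58 for Gdf11. Mss51 to Mstn was 0.167 to 0.325, 0.447 to 0.728 and 6.07 to 23.3, with an SD of 7.32 among the 4 mice at 7 weeks.

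**Figure D4:**
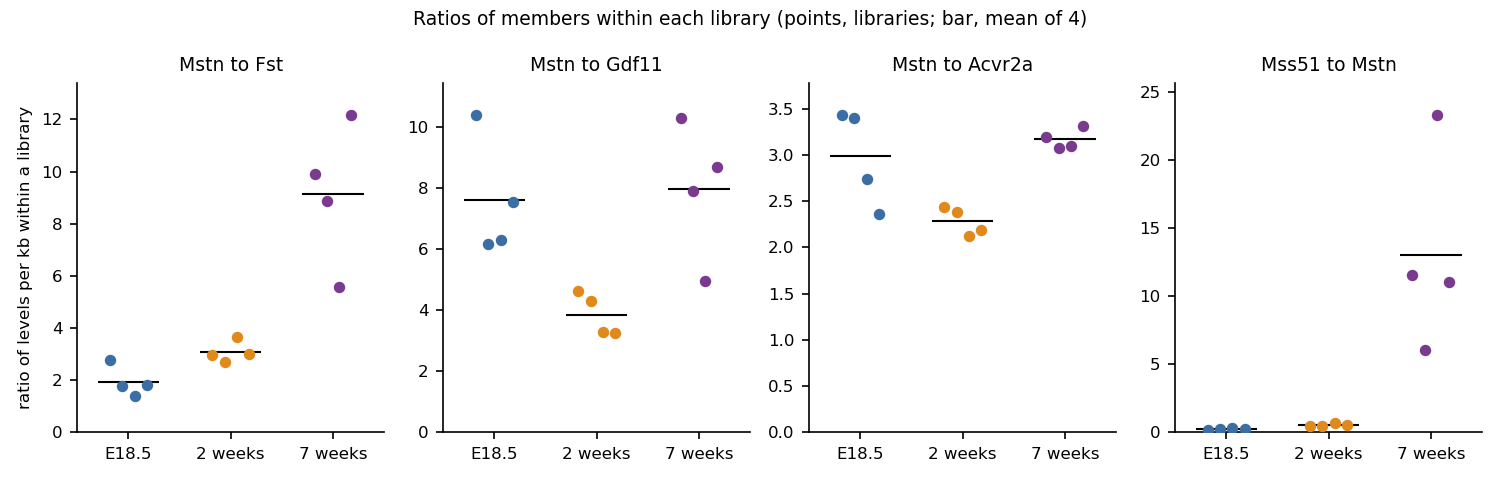
Ratio of the level per kb of 1 member to that of another within each library (y axis, no unit, from 0) at the 3 ages. Points are libraries and bars are means of 4. Mstn to Fst has means of 1.95, 3.09 and 9.14, and Mstn to Gdf11 is lowest at 2 weeks, which was not the case with the GC trend removed. Mstn to Acvr2a is 2.36 to 3.43 at E18.5, 2.13 to 2.44 at 2 weeks and 3.07 to 3.31 at 7 weeks.

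A wider list of 45 genes of TGF-beta, activin and myostatin signalling, without the members, set these values in their pathway. Gdf15 and Tdgf1 had too few reads, and of the 43 tested 16 rose and 13 fell to 2 weeks, 10 rose and 7 fell from 2 to 7 weeks, and 15 rose and 14 fell from E18.5 to 7 weeks. Of all tested genes 31.5% were called higher and 34.2% lower in the first comparison, 13.5% and 13.9% in the second, and 34.3% and 37.1% in the third. The medians were -0.07, -0.12 and 0.11 on the log2 scale, beside -0.09, -0.03 and -0.09 over all genes.

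The 2 Smads that carry the signal of myostatin and activin moved in opposite directions to 2 weeks. Smad3 held 33.4 to 42.0 CPM at E18.5, 123 to 165 CPM at 2 weeks and 252 to 334 CPM at 7 weeks, with no overlap. It rose in both intervals (1.96, SE 0.15, edgeR adjusted p = 2.82e-07, and 0.96, SE 0.15, edgeR adjusted p = 0.000545). Smad2 held 40.5 to 54.9 CPM at E18.5 and 16.4 to 17.5 CPM at 2 weeks, and it fell (-1.47, SE 0.13, edgeR adjusted p = 6.98e-07). At 7 weeks Smad2 was at 17.4 to 20.7 CPM. Smad4, which joins both in the nucleus, rose from 2 to 7 weeks (0.71, SE 0.13, edgeR adjusted p = 0.00206), and all 4 libraries at 7 weeks were above those at 2 weeks.

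Among type I receptors, Acvr1b, which encodes ALK4 and serves activin and myostatin, went from 11.1 to 15.4 CPM at E18.5 through 21.3 to 40.1 CPM to 49.8 to 85.4 CPM at 7 weeks. It rose in both intervals (1.22, edgeR adjusted p = 0.000215, and 1.14, edgeR adjusted p = 0.00183), while total counts gave 0.26 (edgeR adjusted p = 0.245) for the first. Tgfbr1, which encodes ALK5, fell to 2 weeks (-1.34, SE 0.20, edgeR adjusted p = 7.23e-05) from a mean of 72.9 to 28.9 CPM. Acvr1c, which encodes ALK7, held 1.62, 0.71, 24.8 and 32.2 CPM at E18.5 and at most 0.23 CPM in any later library, and fell by 6.84 on the log2 scale to 2 weeks (SE 1.18, edgeR adjusted p = 0.000183). The fat cell hormone gene Adipoq stood high in the same E18.5 libraries, with 6.38, 7.75, 213 and 184 CPM. All 5 adipocyte markers fell to 2 weeks, beside 34.2% of all genes called lower. Their part in the change of Acvr1c was not tested.

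Other ligand, processing and binding genes moved in both directions. Tgfb1 went from 1.86 to 3.81 CPM at E18.5 to 9.14 to 10.1 CPM at 2 weeks and back to 1.95 to 5.71 CPM at 7 weeks, a rise (1.82, SE 0.30, edgeR adjusted p = 0.000140) and a fall (-1.41, SE 0.30, edgeR adjusted p = 0.00419). With the GC trend removed the rise was 0.29 (edgeR adjusted p = 0.124). Furin, which encodes a protease that cuts the myostatin precursor, rose to 2 weeks (1.44, SE 0.27, edgeR adjusted p = 0.000328), with 0.08 (edgeR adjusted p = 0.511) once the GC trend was removed and 0.50 (edgeR adjusted p = 0.0973) with total counts. Bmp1, whose product frees myostatin from its propeptide, fell from 2 to 7 weeks (-1.30, SE 0.29, edgeR adjusted p = 0.00576). Tcap, which encodes a sarcomere protein that binds myostatin, rose to 2 weeks by 5.91 (SE 0.60, edgeR adjusted p = 2.59e-06). All 7 fast fibre markers also rose, beside 31.5% of all genes called higher. Ltbp4, which encodes a latent TGF-beta binding protein, rose by 2.80 (SE 0.39, edgeR adjusted p = 3.01e-05). Wfikkn2, whose product (GASP-1) binds and inhibits myostatin, was at 4.27 to 8.38 CPM at E18.5 and 4.33 to 7.94 CPM at 2 weeks, and rose to 15.1 to 18.3 CPM at 7 weeks (1.45, SE 0.25, edgeR adjusted p = 0.00117). Its change to 2 weeks was -0.07 (edgeR adjusted p = 0.811), against -1.03 (edgeR adjusted p = 0.00137) with total counts and -0.91 (edgeR adjusted p = 0.00172) with the GC trend removed. Of the genes that TGF-beta signals are known to induce, Cdkn2b rose from 2 to 7 weeks (1.40, SE 0.37, edgeR adjusted p = 0.0133), at a mean below 1 CPM at both ages, and Cdkn1a fell to 2 weeks (-1.28, SE 0.20, edgeR adjusted p = 9.54e-05). From E18.5 to 7 weeks the largest falls after Acvr1c were those of Tll1, a protease gene related to Bmp1 (-2.08, edgeR adjusted p = 4.57e-05), and Tgfbr3, the gene of the co-receptor betaglycan (-1.54, edgeR adjusted p = 9.30e-07).

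**Figure D5:**
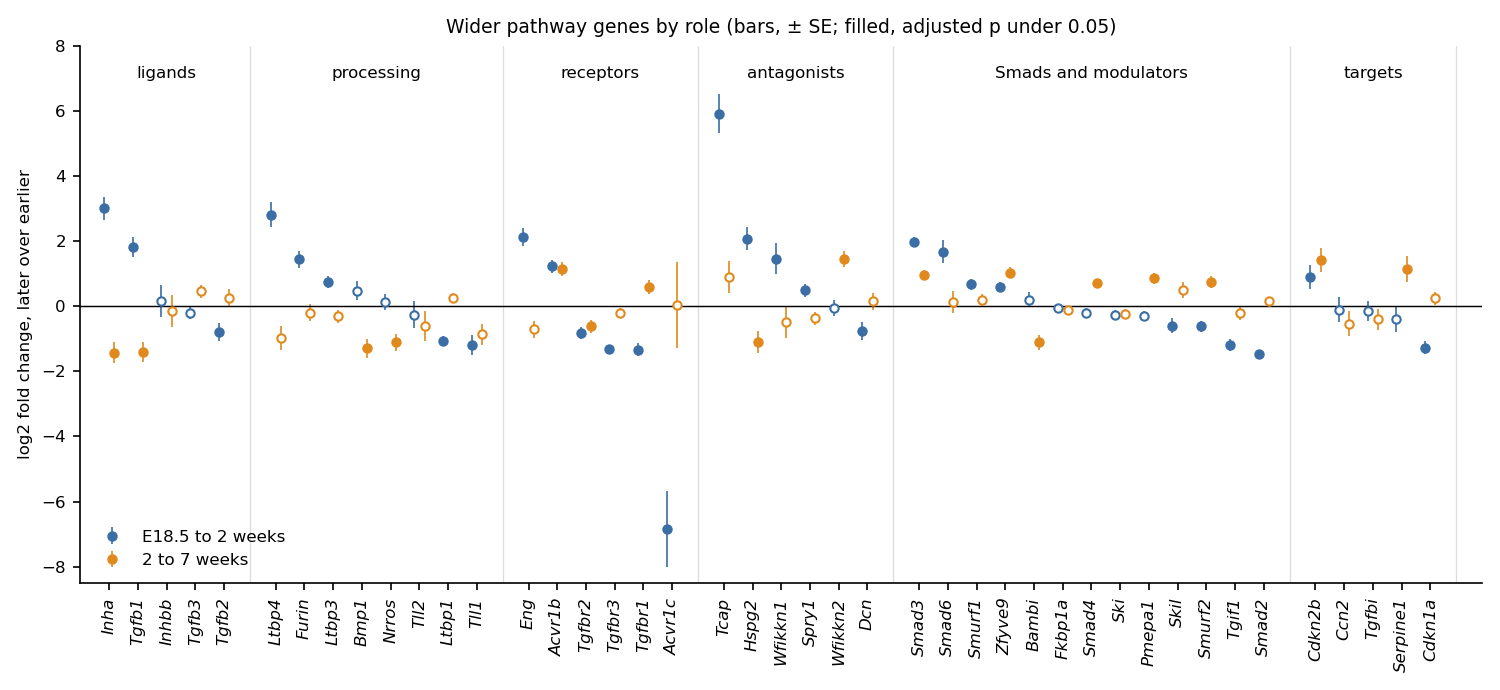
Log2 fold change (y axis, later over earlier age) of the 43 tested genes of the wider pathway, grouped by role, for E18.5 to 2 weeks and 2 to 7 weeks, with bars for ± SE of the edgeR fit. Filled points passed the adjusted threshold of 0.05. Tcap at 5.91 and Acvr1c at -6.84 lie farthest from 0, both in the first interval.

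A list of 10 genes of cytochrome c oxidase subunit 1 synthesis, the process that the yeast relative of MSS51 serves, was followed beside Mss51. To 2 weeks, when Mss51 stayed near 10 CPM, 9 of the 10 rose, with a median of 1.12 beside -0.09 over all genes, and from E18.5 to 7 weeks all 10 rose with a median of 1.45. Of all tested genes 31.5% and 34.3% were called higher in these comparisons under TMM scaling. With total counts 6 and 7 of the 10 were called, a count that does not separate rises from falls. The background moved too in that setting. Of all tested genes 2550 were called higher and 11923 lower to 2 weeks. From E18.5 to 7 weeks these were 2291 and 13297. From 2 to 7 weeks 1 of the 10 rose, beside 13.5% of all genes called higher, with a median of 0.30. That gene was mt-Co1, which encodes the subunit itself, and its level went from 9078 to 23338 CPM at E18.5 through 36878 to 58630 CPM at 2 weeks to 85137 to 106075 CPM at 7 weeks. It rose to 2 weeks (1.61, SE 0.31, edgeR adjusted p = 0.000424) and from 2 to 7 weeks (1.03, SE 0.30, edgeR adjusted p = 0.0226), the latter lost with total counts (0.70, edgeR adjusted p = 0.0563) and with the GC trend removed (0.74, edgeR adjusted p = 0.0642). The share of reads from all 37 mitochondrially encoded genes was 3.27% to 7.58%, 7.81% to 10.3% and 12.9% to 16.0%. Cox14 (2.94, edgeR adjusted p = 1.61e-06), Cox10 (2.21, edgeR adjusted p = 2.85e-06) and Coa3 (1.70, edgeR adjusted p = 6.55e-06), which encode factors for the assembly of the oxidase, rose to 2 weeks. Taco1, which encodes the translational activator of the mammalian subunit, held 12.7 to 24.8 CPM, 26.4 to 61.3 CPM and 57.0 to 83.9 CPM. It rose to 2 weeks (1.34, SE 0.27, edgeR adjusted p = 0.000544) and differed by 0.70 after that (SE 0.26, edgeR adjusted p = 0.0612). With total counts the rise to 2 weeks was 0.39 (edgeR adjusted p = 0.163). The later value passed with DESeq2 (0.70, adjusted p = 0.0463), with a replicate block (0.78, edgeR adjusted p = 0.0439) and in a fit of the 8 libraries compared (0.66, edgeR adjusted p = 0.0463).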

How the data were processed

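TA muscle RNA of 12 WT mice was measured. Per the labels, cutadapt 1.10, STAR 2.5.3a and HTSeq 0.6.1p1 were used, and the authors deposited a table of whole-number counts of reads for each Ensembl gene, with no normalization. The processing notes name mm10 and the methods name a later build, and the counting annotation and strand setting are not given in the sources used here. Symbols, transcript lengths, GC contents and overlaps come from GENCODE vM39 (51477 of 55450 genes matched) and promoters from RefSeq on GRCm38.p6.

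Counts were scaled with TMM and filtered with filterByExpr, and the ages were compared by quasi-likelihood F-tests (edgeR 4.0.16) in a single fit of the 12 libraries without covariates, with Benjamini-Hochberg adjustment over 19276 genes. The biological coefficient of variation was 0.279. Beside library totals of 63018968 to 123449246 reads, counting error was small next to the spread between mice. Alternatives were total counts, upper-quartile scaling, scaling without mitochondrially encoded genes and the 20 genes with the most reads, DESeq2 1.42.0, other filters on low counts, a replicate block, a lowess trend on GC content removed from each library, a fit of the 8 libraries compared, and leaving out each library. Code was tested on simulated data. Replicates of an age differed beyond sampling noise (chi-square per degree of freedom 34.3 to 577 over 18 pairs).

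The members, lists, motifs and ratios were chosen with earlier results of these data known. All members are named. Of each list the text names genes past the threshold, with the 3 largest rises and falls per comparison whose libraries did not overlap, any marker gene, and the 5 genes with the highest correlation with Mss51 and Mstn. Log2 CPM for correlations used a prior count of 2.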

Additional observations from a re-analysis of the deposited data

Results flagged for a closer look

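In 2 of the 30 sets of 4 libraries (10 members at 3 ages), 1 library stood apart from the other 3 by more than the limit of Dixon's test for 4 values. Chance gives about 1.5 such sets, since it marks about 1 set in 20. E18.5 replicate 1 had an Mstn level of 88.9 CPM, while the others of its age had 40.3 to 47.7 CPM (ratio 0.847). Inhba in 2 weeks replicate 1 was at 1.26 CPM, beside 1.72 to 1.73 CPM in the others (ratio 0.991). The falls of Mstn and Inhba to 2 weeks were -0.72 and -1.97 on the log2 scale without these libraries, and both stayed past the threshold (edgeR adjusted p = 0.00968 and 0.00435).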

How the results depend on the processing

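Counts of genes called moved by over 1.5 times in 8 cases with all libraries kept. The BMP arm count to 2 weeks went from 10 to 16 with total counts. With that scaling 2550 of all 19276 tested genes were called higher and 11923 lower, beside 6074 and 6594 with TMM. That of cytochrome c oxidase subunit 1 synthesis from 2 to 7 weeks went from 1 to 0 without abundant and mitochondrially encoded genes, to 2 with upper-quartile scaling, a replicate block or the GC trend removed, to 3 with DESeq2 and to 4 in a fit of 8 libraries. The count of members whose intervals differed went from 5 to 2 with the GC trend removed. With 1 library left out at a time, these 2 counts ran from 0 to 3 and from 1 to 5, and the BMP arm count from 2 to 7 weeks, 6 in the full fit, ran from 3 to 8.

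Some values changed sign, among them 4 that had passed the threshold: Acvr2b (0.82) and Fstl3 (0.93) to 2 weeks, and Smad7 (0.80) and Bmpr2 (1.005) from E18.5 to 7 weeks. With total counts Mss51, which was not tested, went from 0.20 to -0.74 to 2 weeks. The tested values that changed sign with total counts were Acvr2b (-0.11), Fstl3 (-8.31e-05) and Smad7 (-0.40) to 2 weeks, Inhba (-0.32) and Smad7 (-0.0731) from 2 to 7 weeks, Fstl3 (-0.86), Smad7 (-0.47) and Bmpr2 (-0.26) from E18.5 to 7 weeks, and the interval differences of Gdf11 (0.58), Acvr2b (0.24), Fstl1 (0.49) and Smad7 (0.32). With the GC trend removed they were Fstl3 (-0.0602) and Smad7 (-0.54) to 2 weeks, Inhba (-0.36) from 2 to 7 weeks, Mstn (0.22), Acvr2a (0.12), Fstl3 (-0.39) and Smad7 (-0.0374) from E18.5 to 7 weeks, and the interval differences of Gdf11 (0.58) and Smad7 (1.05). Inhba from 2 to 7 weeks was -0.10 with upper-quartile scaling, -0.0301 with 10 counts in every library and -0.0302 in a fit of 8 libraries. The interval difference of Gdf11 was 0.0288 with upper-quartile scaling, 0.000696 without abundant and mitochondrially encoded genes, 0.0429 with DESeq2, 0.0337 without a filter and 0.0744 with 10 counts in every library, and that of Fstl1 was 0.0112 with DESeq2, 0.0050 without a filter and 0.0375 with 10 counts in every library. Except for Fstl3 from E18.5 to 7 weeks with total counts (edgeR adjusted p = 0.0127), none of these tested values passed the threshold after the change of sign. The cause was not tested.

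With 1 library left out, signs changed for Mstn (-0.19 to 0.30), Acvr2a (-0.26 to 0.12) and Gdf11 (-0.18 to 0.0244) from E18.5 to 7 weeks, Gdf11 to 2 weeks (-0.15 to 0.0586) and after (-0.0727 to 0.0205), Inhba from 2 to 7 weeks (-0.39 to 0.27), Wfikkn2 to 2 weeks (-0.22 to 0.0952) and the interval differences of Gdf11 (-0.0981 to 0.12) and Fstl1 (-0.44 to 0.23). Replicate numbers were not used as pairs in the main fit. Deviations of same-numbered libraries correlated at -0.308 to 0.578, 5 of 12 pairs were over 0.1, and in 5 the same number matched best. Between E18.5 and 7 weeks, replicates 1, 3 and 4 matched their own number best (0.578, 0.269 and 0.138). This check cannot tell whether libraries with the same number were handled together. With the replicate block 7, 3 and 5 members were called in the 3 comparisons, Mstn was 0.0076 from E18.5 to 7 weeks and Inhba -0.24 from 2 to 7 weeks.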

Other observations

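The BMP arm of the same family, which signals through Smad1 and Smad5 and is known to favour muscle mass where myostatin limits it, was followed in a list of 20 genes, all of which were tested. To 2 weeks 3 rose and 7 fell, from 2 to 7 weeks 4 rose and 2 fell, and from E18.5 to 7 weeks 4 rose and 6 fell, with medians of -0.11, 0.21 and -0.08 on the log2 scale beside -0.09, -0.03 and -0.09 over all genes. Of all tested genes 31.5% were called higher and 34.2% lower to 2 weeks, 13.5% and 13.9% from 2 to 7 weeks, and 34.3% and 37.1% from E18.5 to 7 weeks. Bmp6, a ligand gene, rose in both intervals, from 4.31 to 5.89 CPM at E18.5 through 9.97 to 12.8 CPM to 14.9 to 20.3 CPM at 7 weeks (1.13, edgeR adjusted p = 4.31e-05, and 0.68, edgeR adjusted p = 0.00747). With total counts the 2 rises were 0.20 and 0.33 and did not pass, and with the GC trend removed the first was 0.0061 (edgeR adjusted p = 0.976). Bmpr2, which encodes the BMP type II receptor, held 51.0 to 74.3 CPM at 2 weeks and rose to 96.9 to 174 CPM at 7 weeks (1.12, SE 0.22, edgeR adjusted p = 0.00235). Bmpr1b, a type I receptor gene, fell from 12.5 to 23.6 CPM at E18.5 to 2.25 to 3.90 CPM at 2 weeks (-2.56, SE 0.34, edgeR adjusted p = 2.28e-05).

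Antagonists and targets of the BMP arm also moved. Grem1, which encodes a secreted BMP antagonist, held 4.19, 3.87, 0.83 and 1.59 CPM at E18.5 and at most 0.11 CPM in any later library, and Nog and Chrd, the genes of noggin and chordin, changed in opposite directions from 2 to 7 weeks (0.99, edgeR adjusted p = 0.0198, and -1.07, edgeR adjusted p = 0.0103). The call of Nog was lost with total counts (0.63) and that of Chrd with the GC trend removed (-0.62). Of the Id genes, which BMP signals induce, Id1 rose from 2.52 to 4.35 CPM at E18.5 to 7.24 to 9.78 CPM at 2 weeks (1.35, SE 0.39, edgeR adjusted p = 0.00748), with 0.42 under total counts and 0.76 without the GC trend, neither of which passed. Id3 rose from 2.71 to 9.82 CPM to 20.8 to 24.7 CPM (2.10, SE 0.45, edgeR adjusted p = 0.000989), and Id2 was lower at 7 weeks, at 3.41 to 4.20 CPM, than at E18.5, at 12.4 to 18.6 CPM (-2.06, SE 0.18, edgeR adjusted p = 2.43e-07). The 4 libraries at 7 weeks were far apart for Id1 (1.87, 2.97, 9.19 and 7.51 CPM) and for Id3 (3.93, 9.15, 21.7 and 14.4 CPM), with replicate 1 lowest and replicate 3 highest for both.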
